A study of Homo sapiens with 9 samples.

Results

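The genes described here are 57 nucleolar ribosome biogenesis factors, chosen by symbol from a list of RNA polymerase I components, small nucleolar ribonucleoprotein (snoRNP) proteins and ribosome assembly factors. All 57 were matched to 1 of the 61806 gene identifiers of a count table, and all 57 had enough counts to be tested, among 20932 genes tested in all. RNA-seq had been performed on HCT116 cells, an established line of human colorectal carcinoma, in 3 groups of 3 libraries. The groups were cells given ORM1 siRNA 1, cells given ORM1 siRNA 2 and cells given a control siRNA, with the transfection reagent Lipofectamine RNAiMax in use. ORM1 encodes orosomucoid 1, an acute phase plasma protein. All libraries carried the batch label Day 3. The labels do not say whether the libraries of a group came from separate cultures, so the p-values measure the spread between these libraries only. A pool of cells was sequenced in each library, so fewer cells expressing a gene and less RNA per cell cannot be told apart.

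Ribosomes are built in the nucleolus. RNA polymerase I transcribes the ribosomal RNA precursor, box C/D and box H/ACA snoRNPs modify it, and the small subunit processome folds and cleaves it. Further factors assemble the large subunit and complete the small subunit, in part in the cytoplasm. Many of these genes are known targets of the transcription factor MYC, which binds the E-box motif CACGTG.

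The promoters were searched for this motif, and windows around it are shown for members whose levels are described below. The RefSeq promoter table (GRCh38.p14) gives 250 bases before to 50 bases after each gene start and held 50 of the 57 members. CACGTG reads the same on both strands, so 1 search covers both. It was found in the promoters of 22 of the 50 members (44%), against 8.77% of the 27305 genes in the table and 12% of the 12745 genes tested that had a promoter there. Among other ribosome biogenesis factors, listed further below, 23 of 101 (22.8%) held it. Of 63 cytosolic ribosomal protein genes, 6.35% did. Each window below holds the motif in capitals with 12 bases on either side, 5′ to 3′ on the gene's own strand. FBL, NAT10 and UTP20 were called higher under both siRNAs, IMP4 under siRNA 2, LTV1 and GNL3 in opposite directions, and WDR43 and PNO1 lower under siRNA 1, while PWP2 had the widest gap between the siRNAs.
FBL, chr19:39846356-39846385, minus strand: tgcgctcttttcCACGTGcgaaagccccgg
NAT10, chr11:34105602-34105631, plus strand: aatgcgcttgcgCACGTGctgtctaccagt
UTP20, chr12:101280083-101280112, plus strand: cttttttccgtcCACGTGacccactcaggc
IMP4, chr2:130342900-130342929, plus strand: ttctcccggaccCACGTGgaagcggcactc
LTV1, chr6:143843354-143843383, plus strand: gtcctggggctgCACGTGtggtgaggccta
GNL3, chr3:52686026-52686055, plus strand: ggcttcagttcaCACGTGgcgccagcggag
WDR43, chr2:28894658-28894687, plus strand: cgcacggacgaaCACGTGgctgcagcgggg
PNO1, chr2:68157885-68157914, plus strand: ggtgcagctgcgCACGTGtttcagccggca
PWP2, chr21:44107388-44107417, plus strand: tgagctgcggcaCACGTGcgacggccgtga

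The motif lay close to the annotated start in most members. Of 25 motifs in the promoters of the 22 members, 21 (84%) began within 50 bases of the gene start, against 37.5% of the 1854 motifs in promoters of genes tested. By role, it was found in 9 of 16 processome members with a promoter in the table, 7 of 14 large subunit members, 3 of 6 late small subunit members, 2 of 4 box H/ACA proteins and 1 of 2 box C/D proteins. It was in 0 of the 6 RNA polymerase I members and 0 of the 2 nucleolar phosphoproteins in the table, NCL and NPM1. No promoter was matched for NOLC1, NOP58, DDX18, RRP1B, BOP1, MPHOSPH10 and RRP12. A match describes these letters only and is not evidence of binding.

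**Figure D1:**
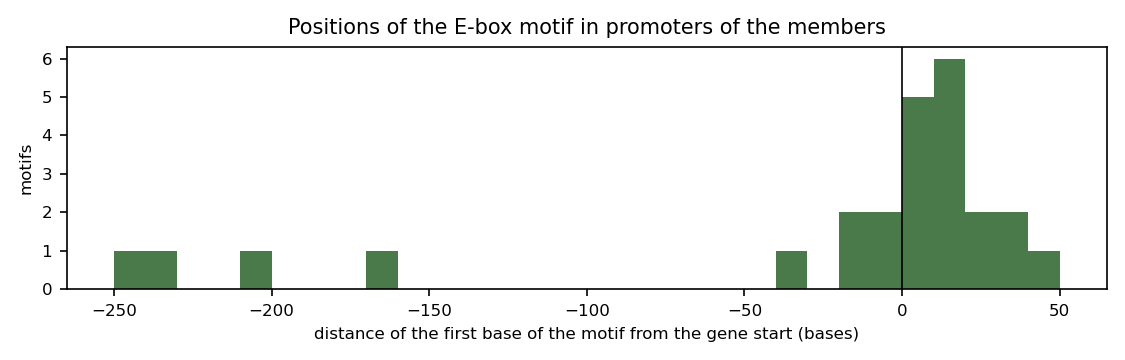
Number of E-box motifs (y axis) by the distance in bases of the motif's first base from the gene start (x axis), over the promoters of 22 members. Of the 25 motifs, 21 lie within 50 bases of the start and the other 4 lie farther upstream.

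The libraries held 60698684 to 71431723 counts each. ORM1 had 0, 0 and 5 counts with siRNA 1, 8, 0 and 12 with siRNA 2, and 63, 56 and 59 with control siRNA, so both siRNA groups lay below the control group at a low level throughout. ORM1 fell, with log2 changes of -5.09 and -3.20 (quasi-likelihood F test in edgeR, p-values adjusted by Benjamini-Hochberg over all genes tested, adjusted p = 0.0029 and 0.019). ORM2 had 19, 8 and 0 counts with siRNA 1, 0, 8 and 14 with siRNA 2, and 38, 39 and 66 with control siRNA. Both siRNA groups lay below control for ORM2 too, and whether the siRNAs act on it was not tested. All 7 epithelial markers of the line were expressed, with summed levels of 83.4% and 84.5% of control for siRNA 1 and siRNA 2, and with each siRNA 4 of them were called lower and 2 higher (edgeR, log2 changes of -0.38 to 0.70). Leukocyte markers had at most 21 counts per library, with CD3E at 0 throughout. Among fibroblast markers COL1A1 had 40.2 to 59.7 counts per 1000000 (CPM), while PDGFRB had 18 to 54 counts per library and COL1A2 and DCN at most 4. Of the endothelial markers, VWF had 33 to 79 counts per library, PECAM1 2 to 25 and CDH5 at most 4. Whether these differences had a part in the results below was not tested.

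The 2 siRNA groups differed in the levels of the biogenesis factors. If each group was 1 culture, a difference between cultures cannot be told apart from one between siRNAs. With siRNA 2, 31 of the 57 members were called higher and 1 lower, where 14.2% of all genes tested were called higher and 12.6% lower. With siRNA 1, 10 members were called higher and 10 lower, where 15.7% of all genes were called higher and 14.8% lower. A call here is an adjusted p below 0.05 in the edgeR test over all 20932 genes. In the mean of both siRNAs against control, 20 members were called higher and 6 lower, where 16.2% and 15.3% of all genes were. The 6 became 3 without control replicate 2, control replicate 3 or siRNA 1 replicate 2, and 4 without control replicate 1 or siRNA 2 replicate 1. The members' shares in the single comparisons were 54.4% higher with siRNA 2 and 17.5% in each direction with siRNA 1. The count of 1 lower with siRNA 2 became 0 without control replicate 2, without control replicate 3 or without siRNA 2 replicate 3, and 2 without siRNA 2 replicate 1.

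The changes were small. The median log2 change of the members was -0.03 with siRNA 1 and 0.14 with siRNA 2, against medians of 0.007 and -0.004 over all genes tested. The median with siRNA 1 moved to -0.01 without control replicate 3, to -0.01 without siRNA 1 replicate 1, to -0.006 without siRNA 1 replicate 2 and to -0.02 without siRNA 1 replicate 3 or control replicate 2. Levels are given as TMM-scaled CPM, and ± is the SD over 3 libraries. Summed over the members, the level was 7985, 7965 and 8001 CPM with siRNA 1, 8829, 9108 and 8881 CPM with siRNA 2, and 7653, 7781 and 7869 CPM with control siRNA. The sums did not overlap between the groups, and lay at 103% of control with siRNA 1 and 115% with siRNA 2. Without NCL and NPM1, the members with the highest CPM, they were 102% and 114% of control.

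The members were also set beside genes of like level. Among the 7934 genes whose control mean lay within the members' range of 21.8 to 1141 CPM, 26.8% were called higher and 23.0% lower with siRNA 2, and 24.1% higher and 28.6% lower with siRNA 1. The share of members called higher with siRNA 2 lay above that level, whereas with siRNA 1 both shares of the members lay below it. In the mean of both siRNAs against control, 27.3% of the 7934 genes were called higher and 28.0% lower. The members' shares there were 35.1% and 10.5%. In 32 members every siRNA 2 library lay above every control library, and in 2 members below, against 19.9% and 19.3% of all genes. With siRNA 1 the groups were likewise separate in 14 members above control and 16 below, against 22.6% and 21.1% of all genes.

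**Figure D2:**
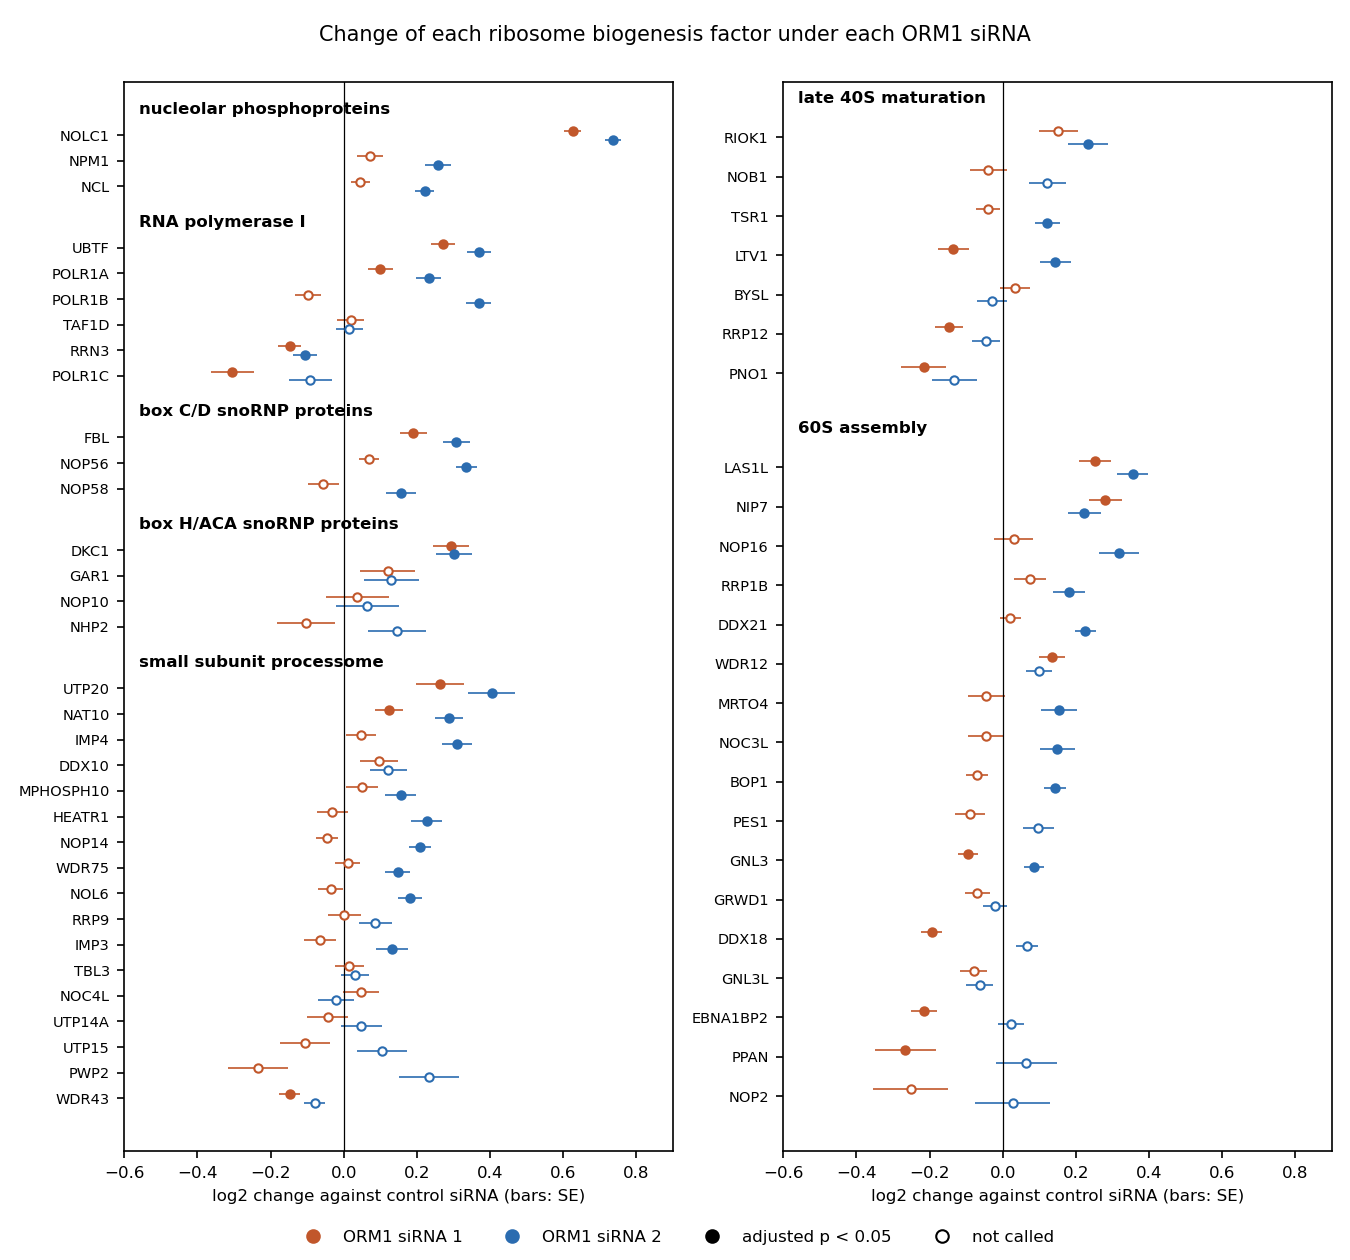
Log2 change against control siRNA (x axis) of each of the 57 members (rows, by role), in orange for siRNA 1 and blue for siRNA 2, with SE as bars and filled points at an adjusted p below 0.05. Filled blue points lie right of 0 for 31 members and left of 0 for RRN3 alone, while filled orange points fall on both sides, 10 each.

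The 3 nucleolar phosphoproteins rose with siRNA 2, and NOLC1 rose with both siRNAs. Of all genes tested, 14.2% were called higher with siRNA 2 and 15.7% with siRNA 1. NOLC1, a phosphoprotein of nucleoli and Cajal bodies that binds snoRNPs and RNA polymerase I, had 446, 442 and 443 CPM with siRNA 1, 481, 483 and 474 CPM with siRNA 2, and 288, 288 and 287 CPM with control siRNA. Its log2 change of 0.63 ± 0.023 (SE) with siRNA 1 and 0.74 ± 0.023 with siRNA 2 was the widest of the 57 members in both comparisons (edgeR, adjusted p = 2.7e-09 in each). The groups were apart by many times the spread within them. NCL encodes nucleolin, an abundant RNA-binding protein of the nucleolus. It had 1096, 1092 and 1078 CPM with siRNA 1, 1216, 1270 and 1205 CPM with siRNA 2, and 1032, 1054 and 1080 CPM with control siRNA. NCL rose with siRNA 2 by 0.22 ± 0.026 on the log2 scale (edgeR, adjusted p = 5.8e-05), while with siRNA 1 the libraries overlapped with control and the change was 0.05 (adjusted p = 0.23). NPM1, nucleophosmin, a histone and ribosome chaperone, had 1165, 1198 and 1236 CPM with siRNA 1, 1316, 1398 and 1383 CPM with siRNA 2, and 1089, 1149 and 1186 CPM with control siRNA. Only the siRNA 2 libraries were separate from control, with a log2 change of 0.26 ± 0.035 (edgeR, adjusted p = 0.00017), against 0.07 with siRNA 1 (adjusted p = 0.15). NPM1 has 49 numbered pseudogenes among the gene symbols matched to the counted identifiers, so its counts depend on how shared reads were treated.

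Of the 6 RNA polymerase I members, UBTF and POLR1A rose with both siRNAs, POLR1B rose with siRNA 2, RRN3 fell with both and POLR1C fell with siRNA 1. Of all genes tested, 15.7% were called higher and 14.8% lower with siRNA 1, and 14.2% and 12.6% with siRNA 2. UBTF, which binds the ribosomal RNA gene promoter and keeps these genes open, had 134, 130 and 127 CPM with siRNA 1, 137, 141 and 141 CPM with siRNA 2, and 109, 105 and 110.4 CPM with control siRNA. Both siRNA groups were separate from control, by 0.27 ± 0.033 and 0.37 ± 0.033 on the log2 scale (edgeR, adjusted p = 5.3e-05 and 6.5e-06). POLR1A and POLR1B encode the largest subunits of the enzyme. POLR1A had 103, 109 and 106 CPM with siRNA 1, 118, 114 and 117 CPM with siRNA 2, and 102, 95.6 and 98.6 CPM with control siRNA. All siRNA 2 libraries stood above the rest, and the lowest siRNA 1 library was 1 CPM above the highest control library. POLR1A changed by 0.10 ± 0.034 with siRNA 1 (edgeR, adjusted p = 0.041) and 0.23 ± 0.034 with siRNA 2 (adjusted p = 0.00028). The siRNA 1 call did not hold without control replicate 2 (adjusted p = 0.153), control replicate 3 (0.0967), siRNA 1 replicate 2 (0.151) or 3 (0.117), or without siRNA 2 replicate 1 (0.0602), 2 (0.0568) or 3 (0.0651).

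POLR1B moved apart between the siRNAs. It had 67.4, 69.5 and 64.5 CPM with siRNA 1, 93.2, 93.9 and 91.2 CPM with siRNA 2, and 72.8, 72.4 and 70.4 CPM with control siRNA. Every siRNA 1 library lay below and every siRNA 2 library above the control libraries, with log2 changes of -0.10 ± 0.035 (edgeR, adjusted p = 0.054) and 0.37 ± 0.035 (adjusted p = 1.1e-05). DESeq2 called POLR1B lower with siRNA 1 (adjusted p = 0.0404). So did edgeR with RLE scaling (0.0426), at least 1 CPM in 3 libraries (0.0394), a replicate block (0.0283) or without siRNA 1 replicate 2 (0.0376). POLR1C, a subunit shared by RNA polymerases I and III, had 40.5, 41.4 and 44.1 CPM with siRNA 1, 44.4, 50.5 and 51.1 CPM with siRNA 2, and 49.4, 53.3 and 52.9 CPM with control siRNA. It fell with siRNA 1, with a log2 change of -0.30 ± 0.059 (edgeR, adjusted p = 0.0018), the widest fall among the members, and the siRNA 2 libraries overlapped with control. RRN3, which recruits the polymerase to the promoter, had 116, 117 and 121 CPM with siRNA 1, 124, 119 and 121 CPM with siRNA 2, and 128, 130.2 and 134 CPM with control siRNA. All 6 siRNA libraries lay below the control libraries, and RRN3 fell, with log2 changes of -0.15 ± 0.032 and -0.11 ± 0.032 (edgeR, adjusted p = 0.0037 and 0.027). The siRNA 2 call did not hold without control replicate 2 (adjusted p = 0.0676) or 3 (0.107), or without siRNA 2 replicate 2 (0.0915) or 3 (0.0709). TAF1D, a subunit of the selectivity factor of the promoter, averaged 210.6 ± 7.64 CPM with siRNA 1, 210.0 ± 7.88 CPM with siRNA 2 and 208 ± 5.32 CPM with control siRNA and was not called in either comparison.

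**Figure D3:**
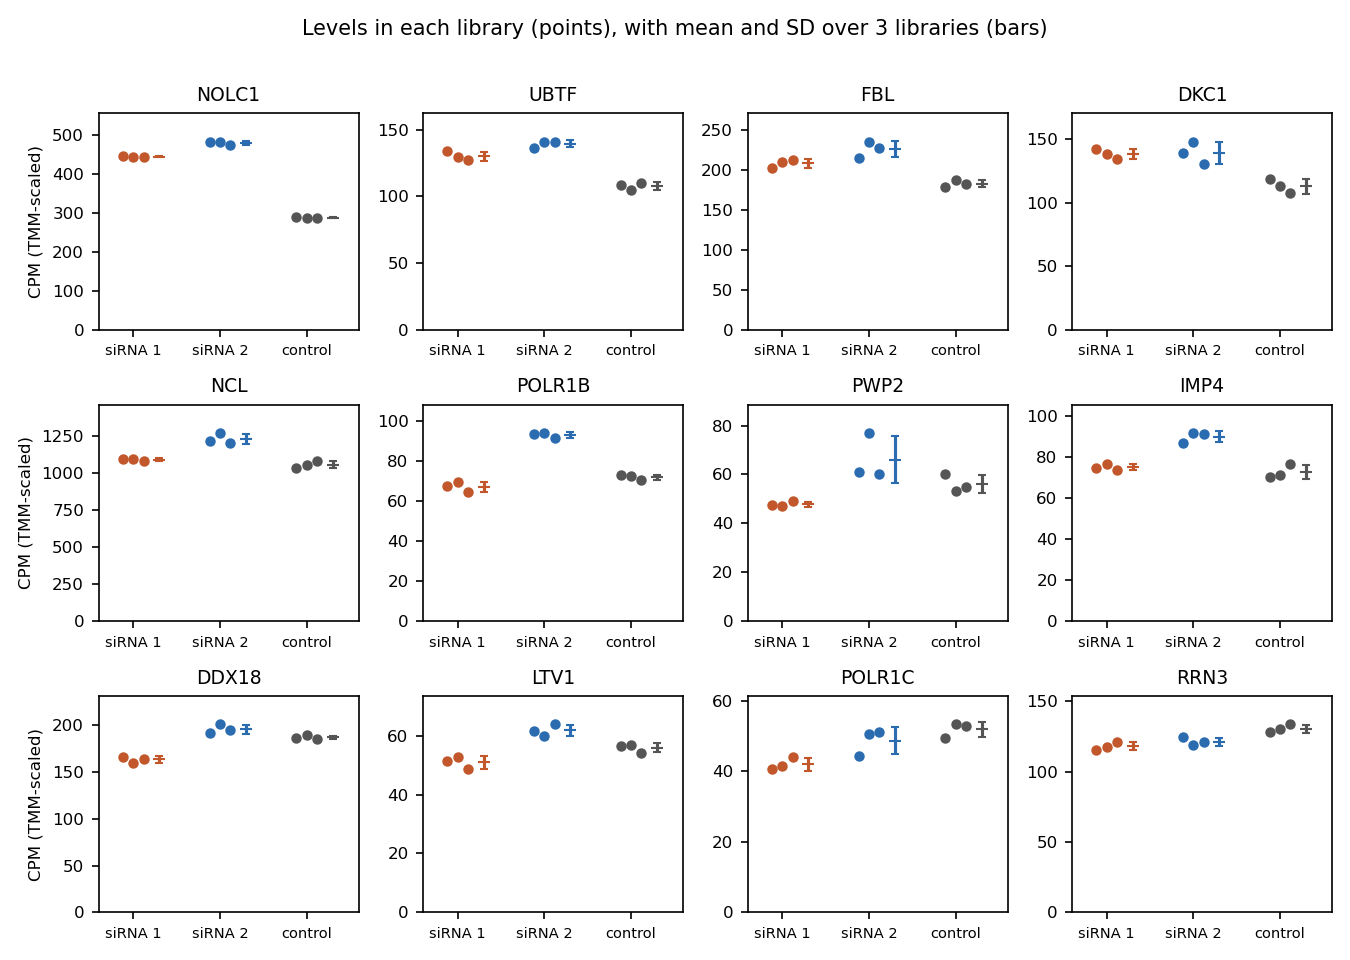
Level in TMM-scaled CPM (y axis, from 0) of 12 members in each library, for siRNA 1, siRNA 2 and control siRNA, with each library as a point and the mean and SD over 3 libraries beside it. NOLC1, UBTF, FBL and DKC1 lie above control in all 6 siRNA libraries, while POLR1B and LTV1 lie below control with siRNA 1 and above it with siRNA 2.

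All 3 box C/D proteins rose with siRNA 2, and 1 of them with siRNA 1, where 14.2% and 15.7% of all genes were called higher. FBL, fibrillarin, the methyltransferase that these snoRNPs carry, had 202, 210.3 and 213 CPM with siRNA 1, 215, 236 and 228 CPM with siRNA 2, and 178, 188 and 183 CPM with control siRNA. Both siRNA groups lay above the control group, by 0.19 ± 0.037 and 0.31 ± 0.037 on the log2 scale (edgeR, adjusted p = 0.0019 and 6.9e-05). NOP56 and NOP58 are the paired core proteins of the particle. NOP56 had 299.9, 300.5 and 302 CPM with siRNA 1, 359, 374 and 354 CPM with siRNA 2, and 289, 290.2 and 282 CPM with control siRNA. Its change with siRNA 2 was 0.34 ± 0.028 (edgeR, adjusted p = 3.8e-06), and with siRNA 1 it was 0.07 ± 0.028 (adjusted p = 0.086) although the libraries did not overlap with control. NOP58 averaged 142 ± 2.51 CPM with siRNA 1, 164 ± 9.97 CPM with siRNA 2 and 147 ± 4.15 CPM with control siRNA, and its log2 change of 0.16 with siRNA 2 (edgeR, adjusted p = 0.015) was not called without control replicate 1 (adjusted p = 0.054).

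Among the 4 box H/ACA proteins, the pseudouridine synthase DKC1, dyskerin, was the member that rose. Of all genes tested, 15.7% were called higher with siRNA 1 and 14.2% with siRNA 2. DKC1 had 142, 139 and 134 CPM with siRNA 1, 139, 148 and 131 CPM with siRNA 2, and 119, 113 and 107 CPM with control siRNA. Both siRNA groups lay above control to a like extent, with log2 changes of 0.29 ± 0.049 and 0.30 ± 0.049 (edgeR, adjusted p = 0.00066 and 0.00062). GAR1, NHP2 and NOP10, its partners in the particle, were not called with either siRNA. They averaged 23.7, 62.0 and 40.5 CPM with siRNA 1, 23.9, 73.7 and 41.3 CPM with siRNA 2, and 21.8, 66.6 and 39.5 CPM with control siRNA.

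With siRNA 2, 9 of the 17 processome members rose (52.9%, against 14.2% of all genes). With siRNA 1, 2 rose (11.8%, against 15.7% of all genes) and 1 fell (5.88%, against 14.8%). Of the genes within the members' range of control levels, 26.8% rose with siRNA 2, and 24.1% rose and 28.6% fell with siRNA 1. No processome member fell with siRNA 2 in edgeR, where 1 had an unadjusted p below 0.05, nor in limma-voom, and 1 fell in DESeq2. UTP20, a large scaffold protein of the particle, had 52.8, 51.9 and 46.1 CPM with siRNA 1, 58.2, 54.4 and 53.7 CPM with siRNA 2, and 44.8, 38.5 and 42.3 CPM with control siRNA. All siRNA libraries stood above control, by 0.26 ± 0.065 and 0.40 ± 0.065 on the log2 scale (edgeR, adjusted p = 0.0083 and 0.00057). NAT10, the enzyme that acetylates small subunit RNA, had 135, 146 and 133 CPM with siRNA 1, 158, 155 and 151 CPM with siRNA 2, and 129.8, 125 and 126 CPM with control siRNA. It too lay above control in all 6 siRNA libraries, by 0.12 ± 0.038 with siRNA 1 (edgeR, adjusted p = 0.028) and 0.29 ± 0.038 with siRNA 2 (adjusted p = 0.00015). The siRNA 1 call of NAT10 did not hold without control replicate 2 (adjusted p = 0.092) or 3 (0.0814) or siRNA 1 replicate 2, where the change was 0.082 (0.124). IMP4, which with IMP3 and MPHOSPH10 forms a complex that binds the U3 snoRNA, had 74.7, 76.7 and 73.9 CPM with siRNA 1, 86.9, 92.0 and 91.5 CPM with siRNA 2, and 70.2, 71.2 and 76.7 CPM with control siRNA. The siRNA 2 libraries were apart from all others, and the change was 0.31 ± 0.040 (edgeR, adjusted p = 0.00012).

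The other processome members called higher with siRNA 2 were HEATR1, NOP14, NOL6, WDR75, MPHOSPH10 and IMP3, with log2 changes of 0.13 to 0.23. HEATR1, a member of the subcomplex that binds the nascent precursor, averaged 129 ± 8.23 CPM with siRNA 1, 155 ± 2.78 CPM with siRNA 2 and 132 ± 3.56 CPM with control siRNA (edgeR, adjusted p = 0.0017 for siRNA 2). Of these calls, MPHOSPH10 (adjusted p = 0.017) was lost without control replicate 1 (0.0591) or 2 (0.0616) or siRNA 2 replicate 2 (0.0744). IMP3 (adjusted p = 0.041) was lost without control replicate 1 (0.13) or 3 (0.0891), siRNA 1 replicate 3 (0.0557), or siRNA 2 replicate 1 (0.0609), 2 (0.067) or 3 (0.146). WDR43, which belongs to the same subcomplex as HEATR1, went the other way with siRNA 1. It had 143, 139 and 141 CPM with siRNA 1, 152, 144 and 147 CPM with siRNA 2, and 155, 155 and 158 CPM with control siRNA. All 6 siRNA libraries of WDR43 lay below the control libraries, and it fell with siRNA 1, with a log2 change of -0.15 ± 0.029 (edgeR, adjusted p = 0.0021), with -0.08 ± 0.029 for siRNA 2 (adjusted p = 0.066). UTP15, TBL3, RRP9, UTP14A, NOC4L and DDX10 were called with neither siRNA in edgeR, and PWP2 is described with the differences between the siRNAs.

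Of the 7 late small subunit factors, PNO1, LTV1 and RRP12 fell with siRNA 1, and RIOK1, LTV1 and TSR1 rose with siRNA 2. Among all genes tested, 14.8% were called lower with siRNA 1 and 14.2% higher with siRNA 2. Among genes within the members' range of control levels, the shares were 28.6% and 26.8%. Between the siRNAs LTV1, TSR1 and NOB1 were called, all lower with siRNA 1, and PNO1, RIOK1, BYSL and RRP12 did not pass that test (edgeR, adjusted p = 0.42, 0.38, 0.37 and 0.09). The difference in NOB1 was -0.16 (edgeR, adjusted p = 0.043), a call lost without control replicate 2 (0.0617) or 3 (0.0513), siRNA 1 replicate 1 (0.104) or 2 (0.162), or siRNA 2 replicate 2 (0.0986) or 3 (0.161). PNO1, which guards the last cleavage site of the small subunit RNA, had 38.8, 37.1 and 37.7 CPM with siRNA 1, 40.9, 43.2 and 36.3 CPM with siRNA 2, and 44.4, 42.2 and 45.4 CPM with control siRNA. Its siRNA 1 libraries lay below control, by a log2 change of -0.22 ± 0.061 (edgeR, adjusted p = 0.017), and its siRNA 2 libraries overlapped with control. RRP12, a factor for export of the subunits, had 78.2, 74.7 and 76.0 CPM with siRNA 1, 77.7, 85.1 and 82.9 CPM with siRNA 2, and 83.9, 85.9 and 83.9 CPM with control siRNA. It fell with siRNA 1, with a log2 change of -0.15 ± 0.038 (edgeR, adjusted p = 0.0103). The call of PNO1 did not hold without control replicate 3 (adjusted p = 0.0672) or siRNA 1 replicate 2 (0.0641), and that of RRP12 did not hold without siRNA 1 replicate 2 (0.0516).

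LTV1, a chaperone that leaves the small subunit late in the cytoplasm, had 51.2, 52.8 and 48.6 CPM with siRNA 1, 61.4, 60 and 63.8 CPM with siRNA 2, and 56.6, 56.9 and 54.2 CPM with control siRNA. Control lay between the siRNA groups with no overlap. The log2 changes were -0.14 ± 0.043 with siRNA 1 (edgeR, adjusted p = 0.031) and 0.14 ± 0.043 with siRNA 2 (adjusted p = 0.025). The first was lost without control replicate 1 (0.0852) or 2 (0.0999) or siRNA 1 replicate 1 (0.0655) or 3 (0.114), and the second without control replicate 3 (0.0911) or siRNA 2 replicate 1 (0.0513) or 3 (0.102). RIOK1, a kinase of the late small subunit, had 45.7, 47.1 and 48.8 CPM with siRNA 1, 47.2, 53.0 and 49.5 CPM with siRNA 2, and 41.1, 41.1 and 45.2 CPM with control siRNA. All siRNA libraries of RIOK1 stood above control, and the call was made for siRNA 2 (0.23 ± 0.054, edgeR, adjusted p = 0.0068) and not for siRNA 1 (0.15 ± 0.054, adjusted p = 0.052). DESeq2 did call RIOK1 with siRNA 1. So did edgeR with library totals only, upper quartile scaling, at least 1 CPM in 3 libraries or a replicate block. The same held without control replicate 3 or siRNA 2 replicate 2. TSR1, related to translational GTPases, changed by 0.12 with siRNA 2 (edgeR, adjusted p = 0.018), a call lost without control replicate 2 (0.0672) or 3 (0.0532) or siRNA 2 replicate 2 (0.0714). NOB1, the nuclease of the last cleavage, and BYSL were called with neither siRNA against control in edgeR.

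With siRNA 2, 9 of the 17 large subunit factors rose (52.9%, against 14.2% of all genes). With siRNA 1, 3 rose (17.65%, against 15.7% of all genes) and 4 fell (23.5%, against 14.8%). Both siRNA 1 shares lay below those of genes within the members' range of control levels, 24.1% and 28.6%. With siRNA 2, 26.8% of those genes rose. The count of large subunit factors that fell with siRNA 2 was 0 in edgeR, at an unadjusted p below 0.05 as well, and in DESeq2 and limma-voom. LAS1L, the nuclease that cleaves the second internal spacer, had 59.3, 62.1 and 61.7 CPM with siRNA 1, 65.2, 67.9 and 63.6 CPM with siRNA 2, and 48.7, 52.4 and 52.6 CPM with control siRNA. NIP7, an RNA-binding assembly factor, had 66.2, 59.3 and 64.3 CPM with siRNA 1, 60, 62.3 and 60 CPM with siRNA 2, and 50.4, 53.2 and 52.6 CPM with control siRNA. In both genes all 6 siRNA libraries stood above control. LAS1L rose by 0.25 ± 0.043 and 0.36 ± 0.043 on the log2 scale with siRNA 1 and siRNA 2 (edgeR, adjusted p = 0.0007 and 6.4e-05). For NIP7 the rises were 0.28 ± 0.045 and 0.22 ± 0.045 (edgeR, adjusted p = 0.00049 and 0.0028). NOP16, an assembly factor of the nucleolus, had 36.6, 36.1 and 39.3 CPM with siRNA 1, 43.3, 47.8 and 45.7 CPM with siRNA 2, and 34.6, 37.9 and 37.3 CPM with control siRNA. Its siRNA 2 libraries were apart from all others, and it rose there by 0.32 ± 0.054 on the log2 scale (edgeR, adjusted p = 0.00091).

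DDX21, a helicase that acts on ribosomal RNA and snoRNAs, averaged 299.5 ± 4.72 CPM with siRNA 1, 345 ± 4.37 CPM with siRNA 2 and 295 ± 8.27 CPM with control siRNA, and rose with siRNA 2 by 0.23 ± 0.028 on the log2 scale (edgeR, adjusted p = 8.7e-05). PES1, BOP1 and WDR12 form the PeBoW complex of the pre-60S particle. Their log2 changes with siRNA 2 were near each other, at 0.10, 0.14 and 0.10. With siRNA 1 they were -0.09, -0.07 and 0.13, so WDR12 was apart there. BOP1 averaged 187 ± 5.60 CPM with siRNA 1, 217 ± 4.18 CPM with siRNA 2 and 196 ± 2.12 CPM with control siRNA and rose with siRNA 2 (0.14 ± 0.030, edgeR, adjusted p = 0.0035). WDR12 averaged 80.8 ± 2.55 CPM with siRNA 1, 78.8 ± 2.20 CPM with siRNA 2 and 73.6 ± 1.28 CPM with control siRNA and rose with siRNA 1 (0.13 ± 0.035, edgeR, adjusted p = 0.012), a call lost without siRNA 1 replicate 1 (0.0572), with 0.10 for siRNA 2 (adjusted p = 0.061). PES1 was called with neither siRNA (edgeR, adjusted p = 0.14 and 0.12), with 150.2 ± 0.298 CPM with siRNA 1, 171 ± 6.18 CPM with siRNA 2 and 159.8 ± 9.58 CPM with control siRNA. RRP1B, MRTO4 and NOC3L were the remaining large subunit members called higher with siRNA 2, besides GNL3. MRTO4 (adjusted p = 0.038) was lost without control replicate 1 (0.141) or 3 (0.0563), siRNA 1 replicate 2 (0.0523), or siRNA 2 replicate 2 (0.128) or 3 (0.108). NOC3L (adjusted p = 0.04) was lost without control replicate 1 (0.131) or 2 (0.0987), siRNA 1 replicate 2 (0.0533) or 3 (0.0524), or siRNA 2 replicate 1 (0.155) or 2 (0.0763).

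The large subunit members that fell with siRNA 1 were EBNA1BP2, DDX18, PPAN and GNL3. EBNA1BP2, an assembly factor known from its yeast counterpart Ebp2, had 87.7, 90.5 and 90.6 CPM with siRNA 1, 103, 108 and 106 CPM with siRNA 2, and 99.4, 105 and 108 CPM with control siRNA. Its log2 change with siRNA 1 was a fall, -0.21 ± 0.036 (edgeR, adjusted p = 0.00065) and overlapped with control with siRNA 2. The helicase DDX18 had 166, 159.6 and 164 CPM with siRNA 1, 191, 201 and 195 CPM with siRNA 2, and 186, 189 and 185 CPM with control siRNA. All siRNA 1 libraries of DDX18 were below control, and it fell, with a log2 change of -0.19 ± 0.029 (edgeR, adjusted p = 0.00029). All siRNA 2 libraries of DDX18 lay above control, with a log2 change of 0.07 ± 0.029 that was not called (edgeR, adjusted p = 0.12). PPAN, an assembly factor homologous to yeast Ssf1, had 36.8, 32.8 and 36.5 CPM with siRNA 1, 47.6, 45.7 and 40.2 CPM with siRNA 2, and 39.4, 40.2 and 48.0 CPM with control siRNA. Its change of -0.27 ± 0.084 with siRNA 1 (edgeR, adjusted p = 0.0299) rested on single libraries, since it was -0.17 without control replicate 3 (adjusted p = 0.137) and was lost without siRNA 1 replicate 2 (0.124). In GENCODE 29, 56.0% of the exon bases of PPAN are shared with other genes on its strand, the readthrough gene PPAN-P2RY11 among them, so its counts are uncertain.

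GNL3, nucleostemin, a GTP-binding protein of the nucleolus, had 221, 217 and 216 CPM with siRNA 1, 246, 252 and 244 CPM with siRNA 2, and 232, 231 and 236 CPM with control siRNA. As for LTV1, the control libraries lay between the siRNA groups. Of all genes tested, 0.645% were called in opposite directions by the siRNAs. GNL3 changed by -0.10 ± 0.026 with siRNA 1 (edgeR, adjusted p = 0.015) and by 0.09 ± 0.026 with siRNA 2 (adjusted p = 0.0301). The first call was lost without control replicate 3 (0.0619) or siRNA 1 replicate 2 (0.0602) or 3 (0.0502), and the second without control replicate 1 (0.065) or 2 (0.0976) or siRNA 2 replicate 2 (0.11). NOP2, a ribosomal RNA methyltransferase, varied within the groups, with 102, 80.4 and 79.0 CPM with siRNA 1, 115, 89.0 and 113 CPM with siRNA 2, and 97.8, 105 and 108 CPM with control siRNA. It was not called, and in GENCODE 29 54.4% of its exon bases are shared with a gene on its strand.

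Set directly against each other, 31 of the 57 members were called lower with siRNA 1 than with siRNA 2 and 0 higher. Of all genes tested, 9.83% were called lower and 8.09% higher. The count of 0 higher was the same in edgeR at an unadjusted p below 0.05, in DESeq2 and in limma-voom. The median log2 difference of the members was -0.16, against 0.009 over all genes tested. Of the 57 members, 52 had a lower mean with siRNA 1. Every siRNA 1 library lay below every siRNA 2 library in 35 members and above in 1 member, against 17.1% and 17.2% of all genes. Of the 7934 genes within the members' range of control levels, 21.8% were called lower and 12.7% higher with siRNA 1 than with siRNA 2. Of the 31 calls, 21 were kept at all 18 alternative settings.

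The widest of these differences was in PWP2 and POLR1B. PWP2, of the subcomplex that joins the processome with the U3 snoRNP, had 47.4, 46.9 and 49.0 CPM with siRNA 1, 61.0, 77.0 and 60.1 CPM with siRNA 2, and 60.2, 53.3 and 54.9 CPM with control siRNA. The siRNA 1 libraries lay below all others, and 1 siRNA 2 library was far above the rest. The log2 difference of siRNA 1 from siRNA 2 in PWP2 was -0.47 ± 0.083 (edgeR, adjusted p = 0.002). Against control PWP2 lay next to the threshold with either siRNA, with log2 changes of -0.23 and 0.23 that edgeR did not call (adjusted p = 0.051 and 0.055). DESeq2 called it in both comparisons, lower with siRNA 1 (adjusted p = 0.00942) and higher with siRNA 2 (0.0136), as did edgeR on genes with at least 1 CPM in 3 libraries (0.038 and 0.0482). In edgeR PWP2 was also called lower with siRNA 1 under RLE scaling, with library totals only, with only the groups compared (0.00508), and without siRNA 2 replicate 1 (0.0451), 2 (0.003) or 3 (0.0403). It was called higher with siRNA 2 without control replicate 1 (0.0414) or siRNA 2 replicate 1 (0.036) or 3 (0.0293). For POLR1B, whose libraries are given above, the difference was -0.47 ± 0.035 (edgeR, adjusted p = 3.3e-06). PPAN followed with -0.33 ± 0.084 (edgeR, adjusted p = 0.016), a call lost without siRNA 1 replicate 2 (0.0758) or siRNA 2 replicate 1 (0.0628) or 2 (0.0506). NOP16 and LTV1 came next, with -0.29 ± 0.054 (edgeR, adjusted p = 0.003) and -0.28 ± 0.043 (adjusted p = 0.00074). NOLC1, which rose with both siRNAs, was also lower with siRNA 1 than with siRNA 2 by a small amount, with a difference of -0.11 ± 0.022 (edgeR, adjusted p = 0.0047). DKC1 and NIP7 did not pass the test between the siRNAs, with differences of -0.01 ± 0.049 and 0.06 ± 0.045 (edgeR, adjusted p = 0.93 and 0.46).

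**Figure D4:**
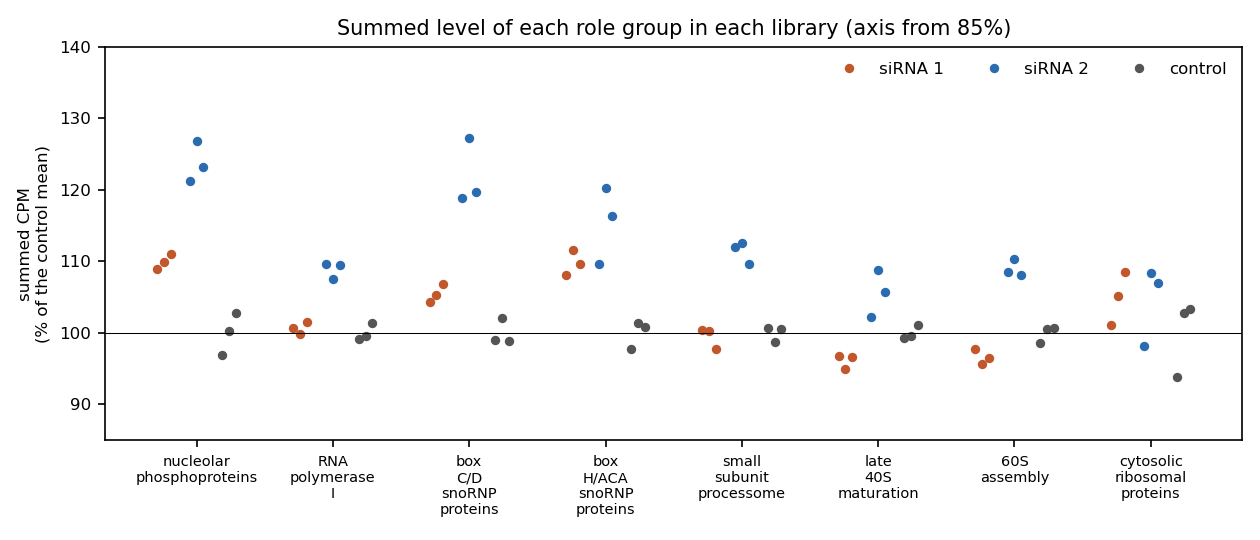
Summed CPM of each role group and of the ribosomal proteins in each library, as a percent of the control mean (y axis, from 85%), for siRNA 1, siRNA 2 and control siRNA in that order. The siRNA 2 libraries lie above the siRNA 1 libraries in the phosphoproteins, RNA polymerase I, box C/D, processome, late 40S and 60S groups, and the 3 groups overlap for ribosomal proteins.

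Summed by role, the levels with siRNA 1 were 110.0% of control for the phosphoproteins, 109.8% for box H/ACA and 106% for box C/D proteins, but 101% for RNA polymerase I, 99.5% for the processome, 96.2% for late small subunit and 96.6% for large subunit factors. With siRNA 2 all 7 role groups lay above control, at 124% for the phosphoproteins, 122% for box C/D, 115% for box H/ACA, 111% for the processome, 109% for both RNA polymerase I and large subunit factors, and 106% for late small subunit factors. Each sum is led by its highest members. NOLC1 alone differed by 156 CPM between siRNA 1 and control, against a difference of 216 CPM for the sum of all 57 members.

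Other genes of ribosome biogenesis were counted from lists of 118 further factors, and all 118 were tested. With siRNA 1, 22 of them rose and 18 fell, and with siRNA 2, 41 rose and 3 fell, with median log2 changes of -0.008 and 0.09. The shares called with siRNA 1 were 18.6% higher and 15.25% lower, near the 15.7% and 14.8% of all genes. Between the siRNAs 3 were higher and 33 lower with siRNA 1 (2.54% and 28.0%, against 8.09% and 9.83% of all genes). The shares called with siRNA 2 were 34.7% higher and 2.54% lower, against 14.2% and 12.6% of all genes. Of the genes within the members' range of control levels, 26.8% were called higher and 23.0% lower with siRNA 2. With siRNA 1 these shares were 24.1% and 28.6%. TCOF1, the treacle protein that links RNA polymerase I with processing, had 160.2, 164 and 165 CPM with siRNA 1, 163, 177 and 173 CPM with siRNA 2, and 112, 109 and 108 CPM with control siRNA. All 6 siRNA libraries stood far above control, with log2 changes of 0.57 ± 0.035 and 0.64 ± 0.035 (edgeR, adjusted p = 1.9e-07 and 1.6e-07). NLE1, an assembly factor of the large subunit, rose by 0.42 and 0.52 (edgeR, adjusted p = 2.8e-05 and 7.7e-06). POP1, the largest protein of RNase MRP and RNase P, rose by 0.46 and 0.52 (edgeR, adjusted p = 3.3e-06 and 2.1e-06). RIOK3, a kinase related to RIOK1, had 79.2, 79.9 and 80.0 CPM with siRNA 1, 96.3, 87.3 and 88.2 CPM with siRNA 2, and 117, 122 and 121 CPM with control siRNA. It fell with both siRNAs, with log2 changes of -0.59 ± 0.039 and -0.40 ± 0.038 (edgeR, adjusted p = 3.6e-07 and 1.1e-05). BUD23, a methyltransferase of small subunit RNA, fell with log2 changes of -0.35 and -0.24 (edgeR, adjusted p = 0.00014 and 0.0024). FTSJ3 and DHX37 rose with both siRNAs by 0.18 to 0.37 on the log2 scale (edgeR). EXOSC3 and EXOSC8, of the RNA exosome, rose with both siRNAs, by 0.24 to 0.34 (edgeR), while EXOSC1 fell with siRNA 1, with a log2 change of -0.38 (edgeR, adjusted p = 0.0015).

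Cytosolic ribosomal proteins, the products that these factors assemble, were a list of 79 genes, all tested. They were not set beside genes of like level. With siRNA 1, 15 rose (19%, against 15.7% of all genes) and 1 fell (1.27%, against 14.8%) in edgeR. With siRNA 2, 16 rose (20.3%, against 14.2% of all genes) and 1 fell (1.27%, against 12.6%). The median log2 changes were 0.06 and 0.02. The 16 became 10 without control replicate 1 or siRNA 2 replicate 2. With siRNA 1, 5 were lower without control replicate 1 or siRNA 2 replicate 1, and with siRNA 2 the number lower ranged from 0 to 6 over libraries left out, while DESeq2 called 4 lower with each. Between the siRNAs, edgeR called 2 higher and 4 lower with siRNA 1 (2.53% and 5.06%, against 8.09% and 9.83% of all genes). Of the 79, 57 had a positive log2 difference, and the median was 0.04. DESeq2 called 8 higher and 6 lower there, edgeR with library totals only called 7 higher, and over libraries left out edgeR called 0 to 4 higher and 1 to 5 lower. Summed levels were 104.9% of control with siRNA 1 and 104.5% with siRNA 2, and the 3 groups overlapped. RPL11 had 534, 539 and 559 CPM with siRNA 1, 506, 547 and 528 CPM with siRNA 2, and 397, 429 and 446 CPM with control siRNA, and it rose with both by 0.36 ± 0.042 and 0.31 ± 0.042 on the log2 scale (edgeR, adjusted p = 4.3e-05 and 0.00016). RPS20 rose with both as well, by 0.37 and 0.24 (edgeR, adjusted p = 0.0002 and 0.005).

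**Figure D5:**
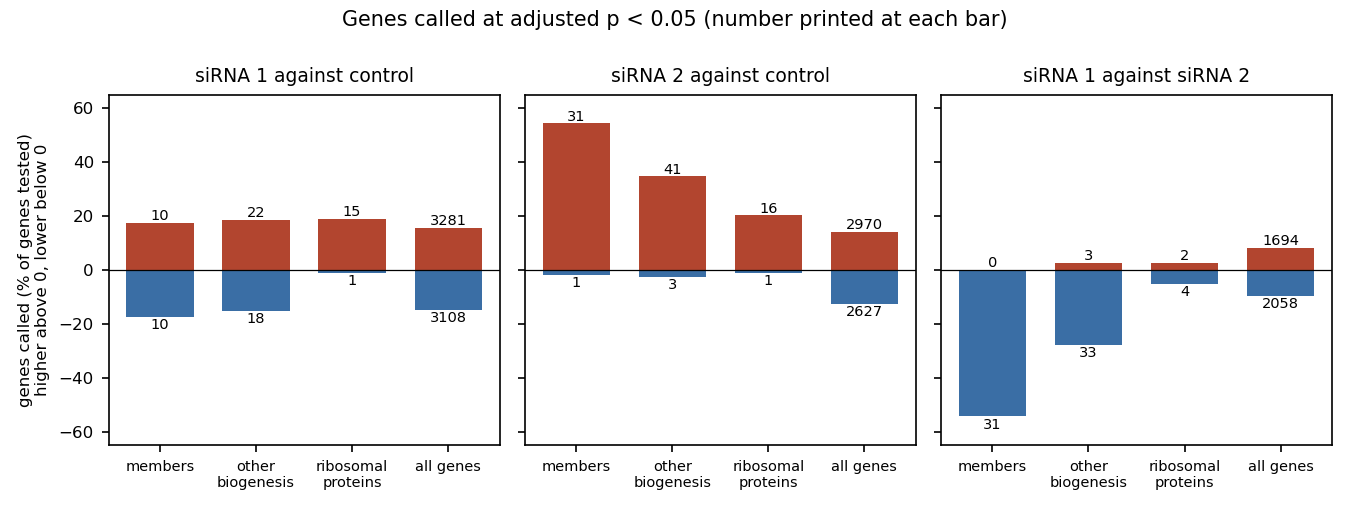
Share of genes tested that were called higher (above 0) or lower (below 0), in percent (y axis), for the members, the other biogenesis factors, the ribosomal proteins and all genes, in the comparisons of siRNA 1 with control, siRNA 2 with control and siRNA 1 with siRNA 2. The number called is printed at each bar, with 31 of 57 members higher for siRNA 2 and 31 of 57 lower for siRNA 1 against siRNA 2.

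MYC, whose product is a known regulator of these genes, had 280.1, 286 and 288 CPM with siRNA 1, 318, 331 and 329 CPM with siRNA 2, and 219, 220.4 and 219 CPM with control siRNA. The groups did not overlap, and siRNA 2 was highest. MYC rose by 0.38 ± 0.026 with siRNA 1 and 0.57 ± 0.026 with siRNA 2 on the log2 scale (edgeR, adjusted p = 6.4e-07 and 4.5e-08), and siRNA 1 was lower than siRNA 2 by a log2 difference of -0.19 ± 0.026 (adjusted p = 0.00033). Among the 22 members with an E-box in the promoter window, 11 rose with siRNA 2, and 3 rose and 5 fell with siRNA 1. Of the 28 members without it, 15 rose with siRNA 2, and 6 rose and 3 fell with siRNA 1. Among all genes tested, 14.2% rose with siRNA 2, and 15.7% rose and 14.8% fell with siRNA 1. The median log2 change with siRNA 2 was 0.14 both in the members with the motif and in those without it. The part of MYC in the members' levels was not tested.

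Members also shared features of gene structure. In GENCODE 29, annotated on GRCh38, 9 of the 57 members (15.8%) host annotated snoRNAs within the gene, 35 in all, against 223 of 14531 protein-coding genes tested (1.53%). The hosts were TAF1D with 8 snoRNAs, GNL3 with 6, NOP56 with 5, NOP58 with 4, NCL and WDR43 with 3 each, and DKC1, TSR1 and PPAN with 2 each. With siRNA 1, DKC1 rose and WDR43, GNL3 and PPAN fell among these hosts, where 15.7% of all genes rose and 14.8% fell. With siRNA 2, 6 of the 9 hosts rose, namely NCL, NOP56, NOP58, DKC1, TSR1 and GNL3, where 14.2% of all genes did. Exons of 23 members overlap a gene on the opposite strand, and the strand setting of the counting is not stated in the sources used. Per kb of exon, NPM1 had the highest control level of the members (298 CPM per kb), followed by NCL (152), FBL (84.1) and NOLC1 (72.5), and UTP20 had the lowest (4.18 CPM per kb). With siRNA 2, NOLC1 had 121 CPM per kb, FBL 104 and NPM1 357.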

How the data were processed

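RNA-seq libraries of HCT116 cells were deposited as 1 table of whole-number counts per Ensembl gene identifier, which are raw counts per the labels. The genome build was hg19 per the submitters' processing notes. The sources used here do not state the aligner, counter, annotation or strand setting, and no hg19 coordinates were used. Low values favoured multiples of 4 (11894 values of 4, against 6787 of 3 and 4317 of 5), so a count may not be a single read. Of the 61806 identifiers, 61757 were matched to a gene record and 26220 had 0 counts in all libraries. Samples were grouped by their titles and treatment labels.

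Genes were kept by filterByExpr (20932) and scaled by TMM (factors 0.985 to 1.01). All 9 libraries entered 1 quasi-likelihood fit (R 4.3.3, edgeR 4.0.16) with each group as a term. The biological coefficient of variation common to all genes was 0.147 and the prior had 5.8 df. Contrasts were each siRNA against control, the mean of both against control, and siRNA 1 against siRNA 2. The comparisons with control share the 3 control libraries. Benjamini-Hochberg adjustment ran over all genes tested, with calls at an adjusted p below 0.05. An approximate SE was taken as the absolute log2 change divided by the root of the F statistic. The fit was tested on simulated data.

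Alternatives were DESeq2 1.42.0, limma-voom (limma 3.58.1), RLE, upper quartile or no scaling beyond library totals, no count filter, at least 1 CPM in 3 libraries, a replicate block, the compared groups alone, and each library left out. Values in every library are given for NOLC1, for the 3 called members of each role with the largest change in the mean of both siRNAs, for up to 8 members called lower there or in opposite directions, and for the 5 largest differences between the siRNAs. From each other list up to 3 called genes are named. Members, lists and this rule were chosen with earlier results of these data known. DDX18 and NOP2, also given in every library, and the members given by means fall outside it and were picked after their values were seen. Promoters are from RefSeq (GRCh38.p14) and gene models from GENCODE 29. Tables were handled in Python 3.11.15 with pandas 2.3.3 and numpy 2.4.6, and figures drawn with matplotlib 3.10.9.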

Additional observations from a re-analysis of the deposited data

Results flagged for a closer look

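LTV1 and GNL3 were flagged because they were called in opposite directions against the shared control libraries and also called between the siRNAs. LTV1, the late small subunit factor, differed by -0.279 on the log2 scale between siRNA 1 and siRNA 2 (edgeR, adjusted p = 0.00074). Its counts are uncertain, since its exons overlap other genes on its strand. GNL3, nucleostemin, differed by -0.180 (edgeR, adjusted p = 0.00054). In both genes every siRNA 1 library lay below and every siRNA 2 library above the control libraries. The same held for POLR1B, NOL6, NOP14, TSR1, BOP1 and DDX18. Each of these was called against control with 1 siRNA only in the edgeR fit of the results. Between the siRNAs they differed by -0.467, -0.217, -0.256, -0.162, -0.213 and -0.261, all but TSR1 more widely than GNL3. Of all genes tested, 0.645% were called in opposite directions by the siRNAs. For LTV1 and GNL3 the differences between the siRNAs were called at all 18 alternative settings. Each of their calls against control was lost at some settings, as given in the results.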

How the results depend on the processing

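No member called in a comparison changed sign at any of the 18 settings. EBNA1BP2 with siRNA 2, which was not called, was 0.02 and became -0.007 with library totals only, and ranged from -0.008 (without control replicate 1) to 0.049 over libraries left out. NOP16 with siRNA 1, not called either, was 0.03 and became -0.009 without control replicate 1 and -0.012 without siRNA 1 replicate 3, with 0.056 the highest value over libraries left out. The median of the members with siRNA 2 was 0.1138 with library totals only, and with siRNA 1 it ranged from -0.0355 to -0.0059 over libraries left out. Members called higher ranged from 8 to 11 for siRNA 1 and 25 to 31 for siRNA 2 when a library was left out. Members called lower with siRNA 1, 10 in the results, were 13 by DESeq2 and 7 to 12 over libraries left out. Of those 10, 5 were called at every setting. Members called lower with siRNA 2, 1 in the results, were 2 by DESeq2, with library totals only or with at least 1 CPM, 0 with no count filter, and 0 to 2 over libraries left out. In the mean of both siRNAs 20 members were called higher and 6 lower, and the 6 became 3 with no count filter and 3 to 7 over libraries left out. There, other biogenesis factors called higher (32) and lower (7) ranged from 21 to 31 and from 4 to 8 over libraries left out. Ribosomal proteins called lower in that contrast (2) were 4 by DESeq2 and limma-voom, 5 with library totals only or at least 1 CPM, 0 with no count filter, and 0 to 7 over libraries left out. The cause of these shifts was not tested. Where groups were left with 2 libraries, the spread was shared over all groups.

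Whether the replicate numbers pair the libraries is not stated. Over all genes tested, deviations of same-numbered libraries correlated at -0.019 to 0.037 over 9 pairs. Of the 9 libraries, 1 correlated best with its own number in both other groups. This check spans all genes, so it cannot exclude pairing in some of them. The summed level of the ribosomal proteins was lowest in replicate 1 of each group. With a replicate block the genes called in the mean of both siRNAs were 6631, against 6595 without it, and members called higher with siRNA 2 were 31 with and without it. Ribosomal proteins called in that mean were 28 higher and 7 lower with the block, against 16 and 2. Those called higher with siRNA 1 were 31 with the block, against 15, and those higher with siRNA 1 than with siRNA 2 were 16, against 2. ORM1 has no value under the filter of at least 1 CPM, which removes it, and the setting with only the compared groups does not apply to the mean of both siRNAs. Depth limits ORM1, at 0 to 12 counts in siRNA libraries, far more than the members.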
